A study of Mus musculus with 46 samples.

Results

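The Paneth products and Reg antimicrobial lectins are 8 secreted proteins of the mouse gut epithelium, encoded by Lyz1, Mmp7, Ang4, Itln1, Reg3a, Reg3b, Reg3g and Reg4. They were chosen by symbol, and all 8 were found among the 45777 symbols of each of 5 bulk RNA-seq count tables. Together they hold 45 gut libraries, 15 groups of 3, and every mouse was a male C57BL/6J. The study set the biguanide metformin and imeglimin, a tetrahydrotriazine, both oral glucose-lowering drugs, against controls and against each other. In the acute experiment colon was taken 6 h after 600 mg/kg of metformin or of imeglimin by mouth, or from controls. In the chronic experiment the drinking water held 3 mg/mL of metformin or of imeglimin for 4 weeks, and samples came from the colon and from the small intestine at its proximal, middle and distal part, in treated and control mice. The labels used here do not state what the controls received, how old the mice were, or if a mouse gave more than 1 of the chronic segments. Each library was made from total RNA of bulk tissue with poly(A) selection, so fewer cells of a type and less RNA per cell cannot be told apart.

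Paneth cells sit at the base of small intestinal crypts, beside the stem cells, and release granules with alpha-defensins, lysozyme and other antimicrobial proteins; the healthy mouse colon has no typical Paneth cells. Reg3 lectins are made by Paneth cells and also by enterocytes, and are known to depend on signals from the microbiota, on MyD88 and on interleukin 22 acting through STAT3. In the mouse colon, Reg4 marks deep crypt secretory cells, which lie between stem cells as Paneth cells do in the small intestine.

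The tables were of similar depth, with 31606797 to 47324301 counts per library. Region markers followed the labels along the small intestine: in controls the proximal marker Onecut2 had 51.4 to 53.2 CPM (counts scaled to the same library total within a table) in proximal and 0.556 to 2.99 CPM in middle and distal small intestine, and the ileal gene Fabp6 had 3283 to 3817 CPM in distal small intestine. The colons of the 2 experiments differed in their region markers: Hoxb13, a gene of the posterior colon, lay at 0 to 6.84 CPM in the 9 acute and 303 to 426 CPM in the 9 chronic colon libraries, and Car1, high in the proximal colon, at 8141 to 13364 CPM in acute and 67.4 to 753 CPM in chronic colon. The labels do not name the part of the colon that was taken. Single libraries stood apart in what bears on the 8 genes. Acute colon control 1 held traces of alpha-defensin RNA (Defa24 at 6.59 CPM, against 1.26 and 0.774 CPM in the other 2 controls). Chronic colon control 3 held pancreatic RNA (Cpb1 at 1940 CPM, against 0.229 and 0.231 CPM in the other 2 controls). Distal control 1 and middle metformin 2 were high in Paneth genes. The main values that rest on one of them are given with and without it.

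The bases upstream of the start site are shown for the 4 Paneth products, which moved together in the small intestine, and for the pair Reg3b and Reg3g, which moved together but apart from those 4. The windows are the 250 bases before the RefSeq start, credited to RefSeq in the build GRCm38.p6 and in the direction of the gene. A RefSeq entry was found for 8 of 8 genes. Mmp7 had 2 starts listed, of which the most upstream was used. The starts used for Reg3b and Reg3g lay 13 and 2 bases from the nearest GENCODE vM21 start, so distances to the start depend on the annotation. Capitals mark 3 motifs searched on both strands: TATAAA, found in 12.4% of all 32851 windows of this length, CTTTGA, the core read by TCF factors, in 13.8%, and TTCNNNGAA, the form read by STAT factors, in 7.02%.
Lyz1 (chr10:117292869-117293118, minus strand): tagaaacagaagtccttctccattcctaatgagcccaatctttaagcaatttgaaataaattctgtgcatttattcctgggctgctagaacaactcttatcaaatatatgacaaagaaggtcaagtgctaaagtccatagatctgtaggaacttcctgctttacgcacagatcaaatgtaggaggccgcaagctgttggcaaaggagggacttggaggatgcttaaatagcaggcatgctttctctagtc
Mmp7 (chr9:7691840-7692089, plus strand): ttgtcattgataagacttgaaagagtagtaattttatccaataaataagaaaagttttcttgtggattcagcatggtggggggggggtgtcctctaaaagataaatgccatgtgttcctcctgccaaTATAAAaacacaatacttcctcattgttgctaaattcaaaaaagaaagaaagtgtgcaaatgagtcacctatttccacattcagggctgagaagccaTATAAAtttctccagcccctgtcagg
Ang4 (chr14:51773591-51773840, minus strand): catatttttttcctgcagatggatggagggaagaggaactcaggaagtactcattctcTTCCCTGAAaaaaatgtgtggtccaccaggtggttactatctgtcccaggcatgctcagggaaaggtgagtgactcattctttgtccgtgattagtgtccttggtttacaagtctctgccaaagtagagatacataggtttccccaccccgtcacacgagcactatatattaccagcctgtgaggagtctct
Itln1 (chr1:171535295-171535544, minus strand): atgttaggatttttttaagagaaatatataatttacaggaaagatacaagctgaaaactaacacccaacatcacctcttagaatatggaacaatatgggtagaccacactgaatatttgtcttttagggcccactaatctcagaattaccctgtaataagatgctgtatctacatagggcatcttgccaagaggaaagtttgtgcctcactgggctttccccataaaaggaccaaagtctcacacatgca
Reg3b (chr6:78370635-78370884, plus strand): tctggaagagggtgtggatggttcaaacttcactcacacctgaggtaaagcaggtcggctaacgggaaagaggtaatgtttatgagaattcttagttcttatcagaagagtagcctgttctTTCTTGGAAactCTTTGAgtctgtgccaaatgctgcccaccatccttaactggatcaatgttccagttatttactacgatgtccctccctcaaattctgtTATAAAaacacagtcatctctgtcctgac
Reg3g (chr6:78468875-78469124, minus strand): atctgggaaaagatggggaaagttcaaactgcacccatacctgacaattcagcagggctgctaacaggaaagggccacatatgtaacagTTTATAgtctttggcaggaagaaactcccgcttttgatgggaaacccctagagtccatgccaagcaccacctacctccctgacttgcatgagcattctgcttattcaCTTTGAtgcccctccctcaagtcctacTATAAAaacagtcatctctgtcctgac
Reg3b and Reg3g lie on the same chromosome and share a run of 20 bases that ends at the start site, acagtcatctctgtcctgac. Each has TATAAA just before that run, beginning 29 bases before the start in Reg3b and 27 bases before it in Reg3g. Among the other pairs of the 8 genes, the longest shared run had 6 to 12 bases. CTTTGA was found in Reg3a, Reg3b and Reg3g, and TTCNNNGAA in Ang4, where the letters were TTCCCTGAA, and in Reg3b, where they were TTCTTGGAA. Lyz1, Itln1 and Reg4 held none of the 3 motifs in this window. A match is a description of letters and shows no binding.

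In control mice the 8 genes differed widely in level, and their order was not the same in small intestine and chronic colon. Per kilobase of merged exon (GENCODE vM21), Reg3b was the highest of them in proximal, middle and distal small intestine, at 3202 ± 952, 3470 ± 1269 and 5620 ± 2844 CPM per kb (SD, n = 3 each). Lyz1, the lysozyme of Paneth cells, was second with 1159 ± 318, 3410 ± 496 and 3818 ± 2504 CPM per kb, and Reg3b and Lyz1 overlapped in the middle and distal libraries. In chronic colon Reg4 came first with 276 ± 105 CPM per kb and Ang4, a ribonuclease with microbicidal activity, second with 241 ± 249 CPM per kb, and these 2 overlapped too. Gene lengths are those of the whole locus, not of the isoforms present, and the order rests on them.

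Going down the small intestine, few of the 8 differed between neighbouring control segments (edgeR quasi-likelihood fit of 36 chronic libraries, Benjamini-Hochberg adjustment over 20053 genes). Lyz1 had 4561, 4766 and 3593 CPM in middle and 1450, 1068 and 1872 CPM in proximal controls. All 3 middle libraries lay above all 3 proximal ones, and Lyz1 was higher in middle small intestine by 1.45 ± 0.42 on the log2 scale (SE, adjusted p = 0.0301). Reg4 had 15.5, 16.9 and 24.7 CPM in middle and 35.4, 61.2 and 43.5 CPM in proximal controls, again without overlap, with a log2 fold change of -1.40 ± 0.25 (adjusted p = 0.000518). These were 2 of 8 members called, beside 6.71% of all genes. Without replicate 2 both calls were lost (Lyz1 1.19, adjusted p = 0.373; Reg4 -1.07, adjusted p = 0.107), and without replicate 1 that of Lyz1 (adjusted p = 0.101). Without replicate 3, Reg3a was called lower in middle small intestine (-1.06, adjusted p = 0.0482). Between distal and middle controls 1 of 8 was called, beside 9.97% of all genes: Reg3a, a C-type lectin of the Reg3 family, had 23.5, 24.3 and 30.7 CPM in distal and 31.7, 45.1 and 78.2 CPM in middle small intestine. The groups did not overlap, and the log2 fold change was -1.18 ± 0.31 (adjusted p = 0.0131), which was lost without replicate 2 or 3 (adjusted p = 0.111 and 0.119). The other 7 members stood at -0.04 to 0.50 between distal and middle controls (adjusted p = 0.566 to 0.989).

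Between chronic colon and distal small intestine controls 7 of 8 members were called, beside 45% of all genes: Reg4 higher in colon, and all others but Ang4 lower. Reg4 rose, with 252, 192 and 401 CPM in colon and 39.1, 18.6 and 22.4 CPM in distal small intestine (log2 fold change 3.18 ± 0.26, adjusted p = 5.36e-11). Lyz1, at 7.84 to 8.27 CPM in colon and 2609 to 8444 CPM in distal small intestine, fell by 9.44 ± 0.59 on the log2 scale, and Itln1, an intelectin that binds microbial sugars, fell by 8.03 ± 0.69 (adjusted p = 1.51e-13 and 1.18e-10). Reg3b had 0, 0 and 1.03 CPM in colon against 7669, 8853 and 2730 CPM in distal small intestine, and Reg3a and Reg3g were likewise called lower in colon. Mmp7, the matrilysin that cuts pro-alpha-defensins to their active form in mice, was at a count of 0 in all 3 chronic colon controls. This allows up to 0.0687, 0.0866 and 0.0683 CPM (3 counts per library, counting error only). By the ratio of means, Mmp7 was thus at least 1610-fold lower there than in distal small intestine, and at least 958-fold lower without distal control 1. This sets CPM scaled within 1 table against CPM scaled within another. The acute colon controls, outside this fit, had 1.26 to 1.65 CPM of Mmp7, 163 to 508 CPM of Reg3b and 40.9 to 87.2 CPM of Reg3g. Ang4 had 58.7, 80.2 and 374 CPM in colon and 550, 174 and 122 CPM in distal small intestine; the groups overlapped and it was not called (log2 fold change -0.93, 95% interval -3.01 to 1.14). Without replicate 1, which leaves out distal control 1, or without replicate 3, which leaves out the colon control with pancreatic RNA, the same 7 were called. Reg4 then stood at 3.68 and 2.71, Lyz1 at -8.76 and -9.74 and Itln1 at -6.76 and -9.67, while Ang4 stood at 0.44 and -2.61 and was not called.

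**Figure D1:**
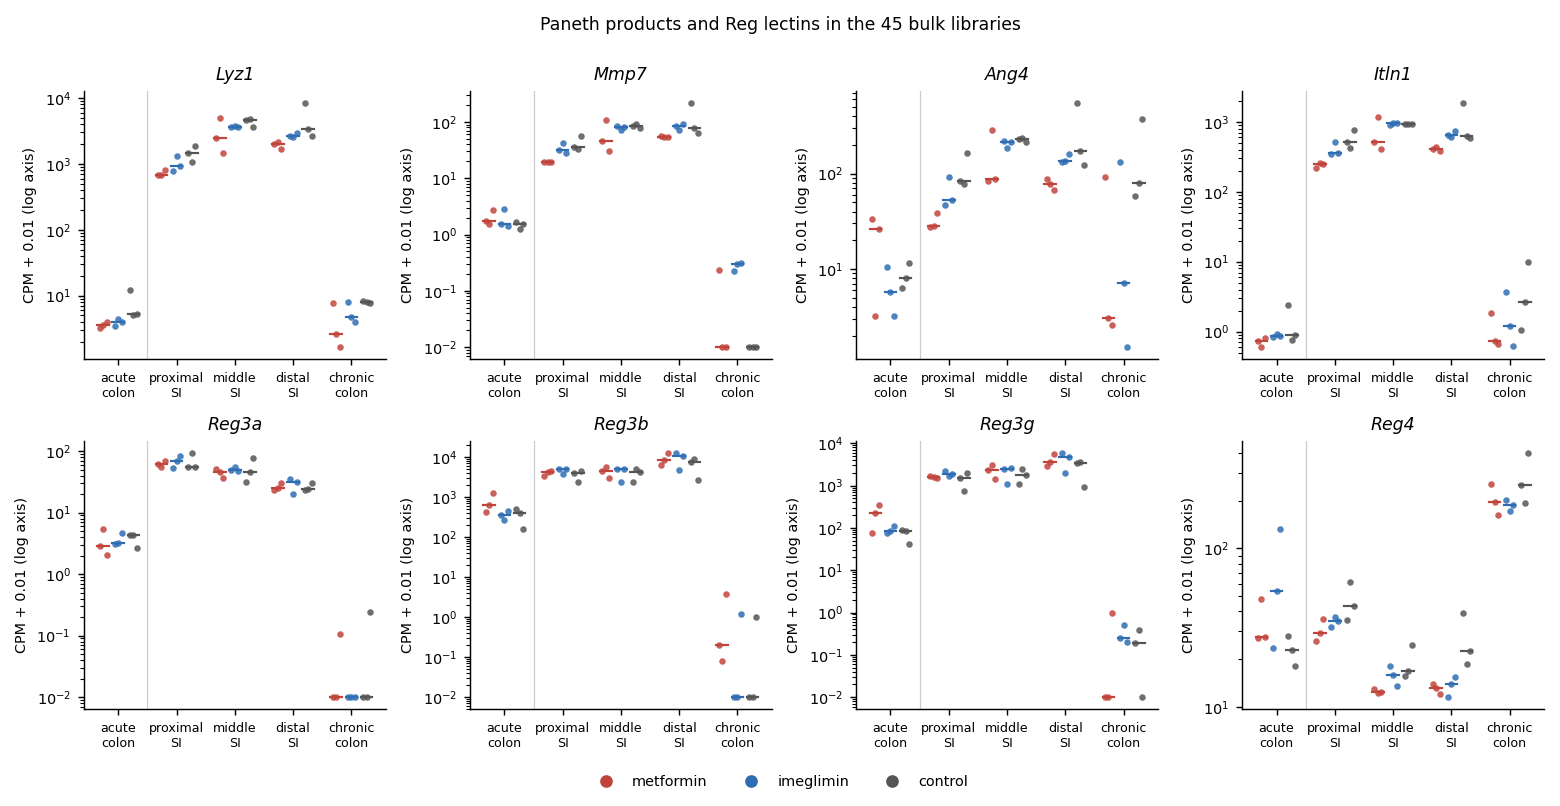
CPM + 0.01 on log axes for the 8 genes in all 45 libraries; points are libraries, short lines are medians of 3, and colours are metformin, imeglimin and control. The 4 Paneth products and the 3 Reg3 genes are high in the small intestine and low in chronic colon except Ang4, Reg3b and Reg3g reach 1293 and 340 CPM in acute colon but at most 3.75 and 0.979 CPM in chronic colon, and Reg4 is highest in chronic colon.

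After 4 weeks of metformin the Paneth products of the proximal small intestine were lower than in control mice. Lyz1, Mmp7, Ang4 and Itln1 were called lower, 4 of 8 members, beside 2.46% of all genes called lower and 4.11% called in either direction. Reg3a, Reg3b, Reg3g and Reg4 were not called. Under imeglimin at the same dose in water none of the 8 was called, beside 1.16% of all genes, and the mean level of each of the 4 Paneth products lay between those of metformin and control mice.

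Lyz1 had 685, 689 and 812 CPM in metformin mice, 774, 1319 and 928 CPM in imeglimin mice and 1450, 1068 and 1872 CPM in control mice. Ang4 had 27.6, 28.4 and 38.6 CPM with metformin, 46.8, 92.1 and 53.2 CPM with imeglimin and 83.1, 78.2 and 165 CPM in controls. The metformin libraries lay below all control libraries in both genes, while the imeglimin libraries overlapped the controls. Itln1 had 217, 258 and 250 CPM with metformin, 348, 511 and 359 CPM with imeglimin and 509, 419 and 753 CPM in controls. Mmp7 had 19.2, 19.3 and 19.5 CPM with metformin, 32.3, 41.8 and 28.1 CPM with imeglimin and 36.2, 32.8 and 55.2 CPM in controls. Here too every metformin library stood below every control, and also below every imeglimin library. In all 4 genes metformin and control did not overlap, as in 13.5% of all genes in this direction.

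The fall with metformin was largest in Ang4, at -1.79 ± 0.31 on the log2 scale (SE, edgeR adjusted p = 0.0149, n = 3 each). It was -1.21 ± 0.20 for Itln1 (adjusted p = 0.0127), -1.10 ± 0.19 for Mmp7 (adjusted p = 0.0136) and -1.01 ± 0.21 for Lyz1 (adjusted p = 0.0284). Reg4 stood at -0.63 ± 0.18 (adjusted p = 0.068), with 26, 29.1 and 35.7 CPM in metformin and 35.4, 61.2 and 43.5 CPM in control mice, which overlapped. Reg4 was called by DESeq2 (-0.62, adjusted p = 0.00422, beside 5.82% of the genes to which it gave an adjusted p called lower) and by edgeR without control 1 (-0.79, adjusted p = 0.0411). With imeglimin against control Lyz1 was at -0.54 (95% interval -1.0 to -0.08), Ang4 at -0.76 (-1.42 to -0.10), Itln1 at -0.46 (-0.90 to -0.03) and Mmp7 at -0.28 (-0.68 to 0.12), with adjusted p of 0.219 to 0.478. Leaving out metformin 1 or metformin 3 ended all 4 metformin calls (adjusted p = 0.056 to 0.0988 and 0.0559 to 0.0871) with fold changes of -0.96 to -1.95, and the Lyz1 call also ended without metformin 2, control 1 or control 3 (adjusted p = 0.0788, 0.0645 and 0.0668). A fit robust to outlying genes ended the calls of Lyz1 and Ang4 (adjusted p = 0.0776 and 0.0657).

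Set against each other at this dose and time, imeglimin and metformin did not differ past the threshold in any of the 8 genes, beside 1.09% of all genes called. Imeglimin was above metformin by 0.82 for Mmp7 (95% interval 0.41 to 1.22, adjusted p = 0.0647), 1.02 for Ang4 (0.35 to 1.69, adjusted p = 0.124), 0.75 for Itln1 (0.31 to 1.19, adjusted p = 0.0969) and 0.47 for Lyz1 (0.01 to 0.93, adjusted p = 0.288). In 4 of 8 members, Mmp7, Ang4, Itln1 and Reg3g, all 3 imeglimin libraries exceeded all 3 metformin libraries, as in 12.6% of all genes. These comparisons share the metformin libraries with the one above. DESeq2 called Mmp7 higher with imeglimin (0.81, adjusted p = 0.000303, beside 2.89% of such genes called higher). An edgeR fit of only these groups called Mmp7 and Itln1 (adjusted p = 0.022 and 0.0338). The share of all genes called in that fit is not given here, so these calls cannot be set against it. The miss of the threshold does not show that the drugs act alike here.

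Other Paneth cell genes stood the same way in the proximal small intestine. Of 31 tested genes on a list of alpha-defensins and other granule or niche genes, 17 were called lower with metformin and 0 higher, with a median log2 fold change of -1.24, against -0.01 over all genes. Defa3 (-1.23, adjusted p = 0.00958) and AY761184 (-1.25, adjusted p = 0.00958), both alpha-defensin family genes, had the smallest p. With imeglimin 0 of 31 were called and the median was -0.51. The alpha-defensins are near-identical copies, so counts may be split among them. Without metformin 3 the count with metformin fell to 7 of 31, and over all 6 single libraries left out it ranged up to 22.

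Marker lists of other cells moved with metformin in the same proximal libraries. Of 10 smooth muscle markers 9 were called lower, with a summed level of 852 to 1143 CPM in metformin, 1526 to 1775 CPM in imeglimin and 1358 to 1660 CPM in control libraries; Myh11, the smooth muscle myosin, was at -0.83 (adjusted p = 0.0136) and Synpo2 at -0.77 (adjusted p = 0.0154). Against metformin, 10 of 10 smooth muscle markers were higher with imeglimin. Of the macrophage and neutrophil, B and plasma cell, and T and innate lymphoid markers, 3 of 9, 3 of 10 and 4 of 11 were lower with metformin. No epithelial marker and no goblet cell marker was called (0 of 10 and 0 of 12), and among 13 secretory lineage factors only Bhlha15, a factor of mature secretory cells, was called (-0.58, adjusted p = 0.0373). With imeglimin 2 of 9 macrophage and neutrophil and 1 of 11 T and innate lymphoid markers were lower, and Bhlha15 was at -0.69 (adjusted p = 0.0424). In middle small intestine the summed smooth muscle level was 1818 to 1848 CPM in metformin and 1480 to 2187 CPM in control libraries. In distal small intestine it was 1178 to 1979 CPM in metformin and 2182 to 2902 CPM in control libraries. The part of the shifts in these marker lists in the fall of the Paneth products was not tested.

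**Figure D2:**
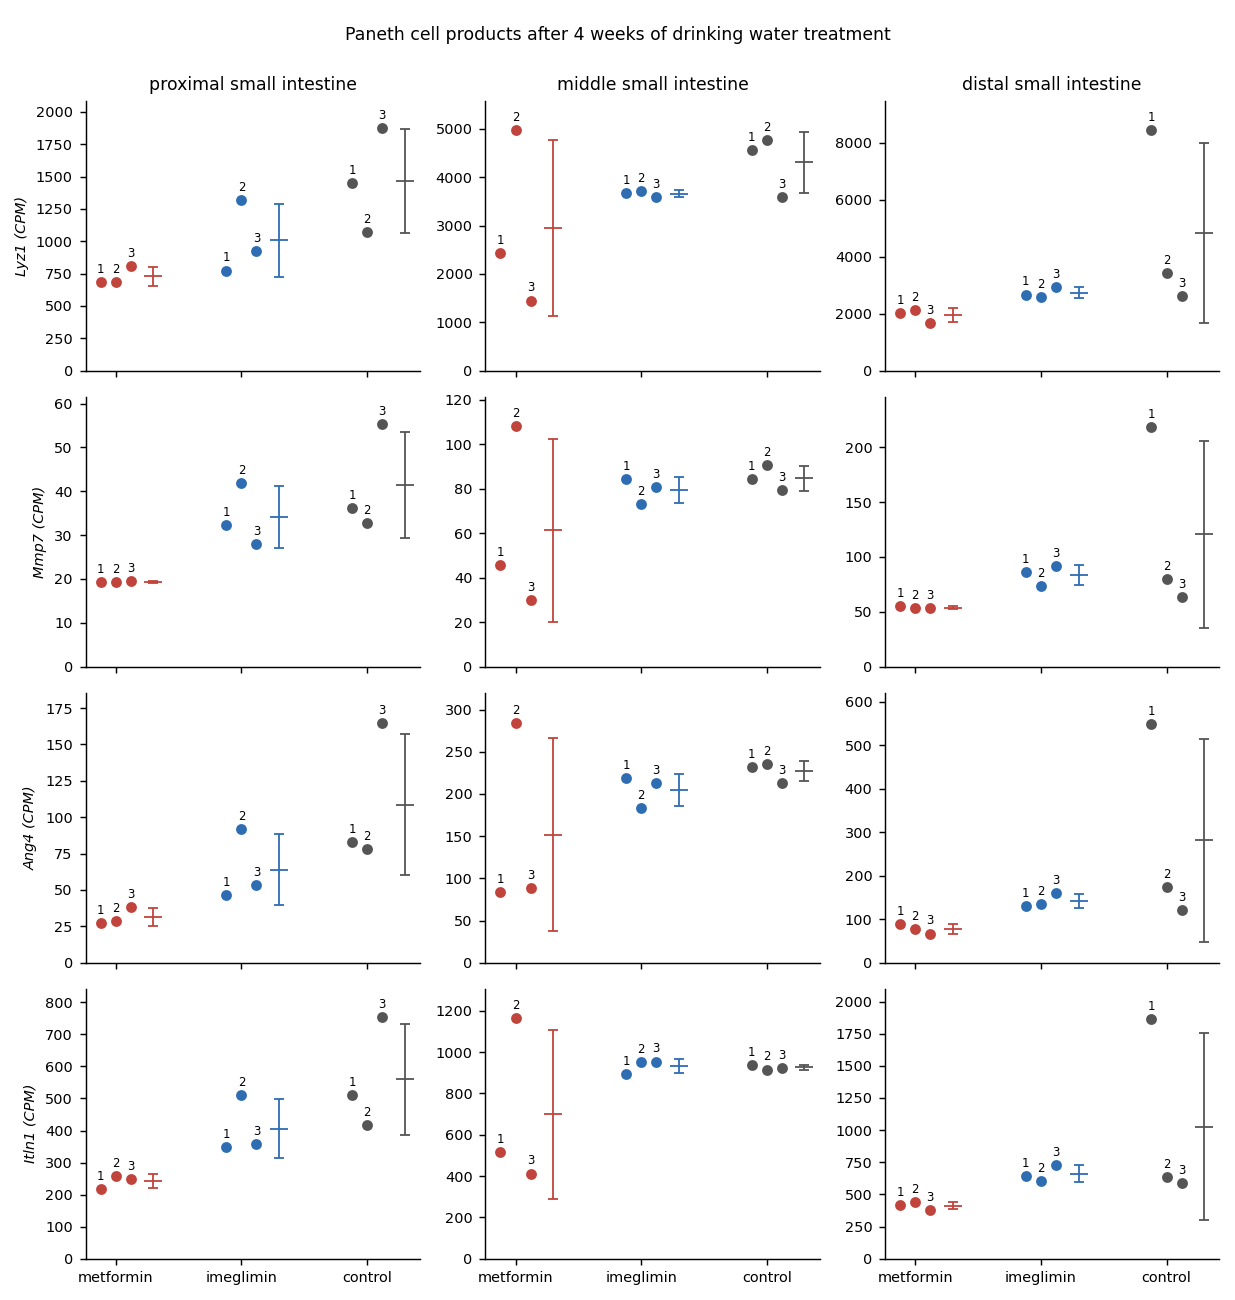
CPM of Lyz1, Mmp7, Ang4 and Itln1 (rows) in proximal, middle and distal small intestine (columns) for metformin, imeglimin and control; points are libraries with their replicate number, and bars are mean ± SD of 3, on axes that start at 0. Metformin lies below control in all proximal and distal libraries, metformin 2 is high in middle and control 1 is high in distal small intestine.

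In middle small intestine none of the 8 genes was called with either drug, beside 0.34% of all genes with metformin and 0.0279% with imeglimin. With metformin, 1 library lay apart from the other 2. Lyz1 had 2442, 4982 and 1450 CPM with metformin, 3676, 3721 and 3594 CPM with imeglimin and 4561, 4766 and 3593 CPM in controls. Ang4 had 83.2, 284 and 88.5 CPM with metformin, 219, 183 and 213 CPM with imeglimin and 232, 235 and 213 CPM in controls. Metformin 1 and 3 lay below every control in both genes, and metformin 2 lay above every control. Without metformin 2, Ang4 (-1.40, adjusted p = 0.00813), Mmp7 (-1.16, adjusted p = 0.0269) and Itln1 (-0.99, adjusted p = 0.0234) were called lower, beside 0.25% of all genes called lower in that fit, while Lyz1 and the Reg genes were not called. Of 33 other Paneth genes 20 were then called lower, against 0 of 33 with all libraries. Metformin 2 also had the most Fabp6 of these 3, with 310 CPM against 17.3 and 24.5 CPM, and the least Lct, the lactase of more proximal gut, with 803 CPM against 1670 and 1360 CPM. Control 1 had a like mix, with 227 CPM of Fabp6 and 777 CPM of Lct. Controls 2 and 3 had 38.1 and 38.8 CPM of Fabp6 and 1311 and 2000 CPM of Lct. Ang4 was at 232, 235 and 213 CPM in controls 1, 2 and 3. The part of the position of the sample in the result was not tested. Ang4 was then also higher with imeglimin than with metformin (1.25, adjusted p = 0.0121), which was not called with all libraries (0.43, adjusted p = 0.656).

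In distal small intestine the metformin libraries were again the lowest in the 4 Paneth products, but no member was called, beside 0.0329% of all genes called lower and 0.625% called in either direction. Lyz1 had 2011, 2144 and 1678 CPM with metformin, 2673, 2570 and 2947 CPM with imeglimin and 8444, 3413 and 2609 CPM in controls. Ang4 had 88.4, 77.2 and 67.1 CPM with metformin, 131, 135 and 161 CPM with imeglimin and 550, 174 and 122 CPM in controls. All metformin libraries lay below all imeglimin and all control libraries in both, and control 1 was far above the other 2 controls. Imeglimin exceeded metformin without overlap in 6.99% of all genes. The log2 fold changes with metformin were -1.31 ± 0.42 for Lyz1, -1.16 ± 0.40 for Mmp7, -1.86 ± 0.49 for Ang4, -1.32 ± 0.41 for Itln1 and -1.04 ± 0.26 for Reg4 (edgeR adjusted p = 0.131 to 0.219). Without control 1 they were -0.63, -0.41, -0.93, -0.56 and -0.65 for Lyz1, Mmp7, Ang4, Itln1 and Reg4, with none called (adjusted p = 0.101 to 0.276). In these 5 genes, metformin and control did not overlap, as in 10.5% of all genes in this direction, and DESeq2, with control 1 in the fit, called all 5 lower (adjusted p = 0.00128 to 0.0425), beside 1.92% of the genes to which it gave an adjusted p. Reg4 was also low with imeglimin, at 11.5, 13.8 and 15.4 CPM, and was at 39.1, 18.6 and 22.4 CPM in controls. These groups did not overlap, as in 7.93% of all genes in this direction (-0.98 ± 0.26, edgeR adjusted p = 0.304, beside 0.0219% of all genes called). DESeq2 called Reg4 lower (adjusted p = 0.0312, beside 0.608% of such genes called lower), and without control 1 edgeR gave -0.59 (adjusted p = 0.496).

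Distal control 1 was not only high in Paneth genes. Its summed level of the other Paneth genes was 41526 CPM, against 16121 and 12675 CPM in the other controls, while the enterocyte gene Alpi had 153 CPM against 394 and 441 CPM and Epcam, the epithelial adhesion molecule, 1433 CPM against 2293 and 2106 CPM. The median log2 fold change of 33 other Paneth genes with metformin was -1.49 with all libraries and -0.77 without control 1. With imeglimin it was -0.81 with all libraries and -0.13 without control 1. Summed smooth muscle markers were at 1178 to 1979 CPM in metformin, 1241 to 2332 CPM in imeglimin and 2182 to 2902 CPM in control libraries, with 0 of 10 called, and their part in these values was not tested.

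Averaged over the 3 segments in 1 fit of the 27 small intestine libraries (a comparison added after the data were seen), 5 of 8 genes were called lower with metformin, beside 5.49% of all 19141 genes called lower. The mean log2 fold change was -1.40 ± 0.27 for Ang4 (SE, edgeR adjusted p = 0.00141), -0.97 ± 0.20 for Itln1 (0.0033), -0.94 ± 0.21 for Lyz1 (0.00566), -0.90 ± 0.22 for Mmp7 (0.00827) and -0.75 ± 0.13 for Reg4 (0.00065). With imeglimin Reg4 alone of the 8 was called, at -0.55 ± 0.13 (adjusted p = 0.00919), beside 5.03% of all genes called lower. Lyz1 and Ang4 stood at -0.52 (95% interval -0.96 to -0.08, adjusted p = 0.121) and -0.62 (-1.16 to -0.08, adjusted p = 0.133) with imeglimin. If a replicate number is 1 mouse across segments, the libraries are not independent; limma on the 9 means over segments, 1 for each drug and number, called the same 5 with metformin (adjusted p = 0.000461 to 0.0257, beside 2.18% of all genes called lower) and Reg4 with imeglimin (adjusted p = 0.00546, beside 1.02%). No difference in the effect of a drug between the 3 segments was called in any of the 8 genes (adjusted p = 0.708 to 0.987 with metformin, beside 0.324% of all genes called, and 0.757 to 0.978 with imeglimin, beside 0% called). Without replicate 1, or without replicate 3, only Ang4 and Reg4 remained called with metformin, with Lyz1, Mmp7 and Itln1 at adjusted p = 0.0904 to 0.157 and 0.0503 to 0.0639, and Reg4 with imeglimin was lost without replicate 2 or 3 (adjusted p = 0.0728 and 0.108). Without distal control 1 the same 5 were called with metformin, with Ang4 at -1.09, Itln1 at -0.72, Lyz1 at -0.72, Mmp7 at -0.65 and Reg4 at -0.62 (adjusted p = 0.000874 to 0.0193).

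Imeglimin against metformin, averaged in the same way, called none of the 8, beside 4.5% of all genes called in either direction. The differences were 0.77 for Ang4 (95% interval 0.23 to 1.32, adjusted p = 0.0984), 0.61 for Itln1 (0.19 to 1.04, adjusted p = 0.0899), 0.61 for Mmp7 (0.16 to 1.05, adjusted p = 0.116), 0.42 for Lyz1 (-0.02 to 0.86, adjusted p = 0.297) and 0.19 for Reg4 (-0.07 to 0.46, adjusted p = 0.456). Without distal control 1, which enters only the estimate of the spread, Mmp7, Ang4 and Itln1 were called higher with imeglimin (adjusted p = 0.0362, 0.0323 and 0.0194). The share of all genes called in that fit is not given here, so the gain cannot be read as particular to these genes. Over the same average, 29 of 33 other Paneth genes were called lower with metformin and 1 higher, and 2 of 33 lower with imeglimin and 0 higher. For imeglimin against metformin 1 of 33 was called higher and 1 lower, with a median of 0.61.

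**Figure D3:**
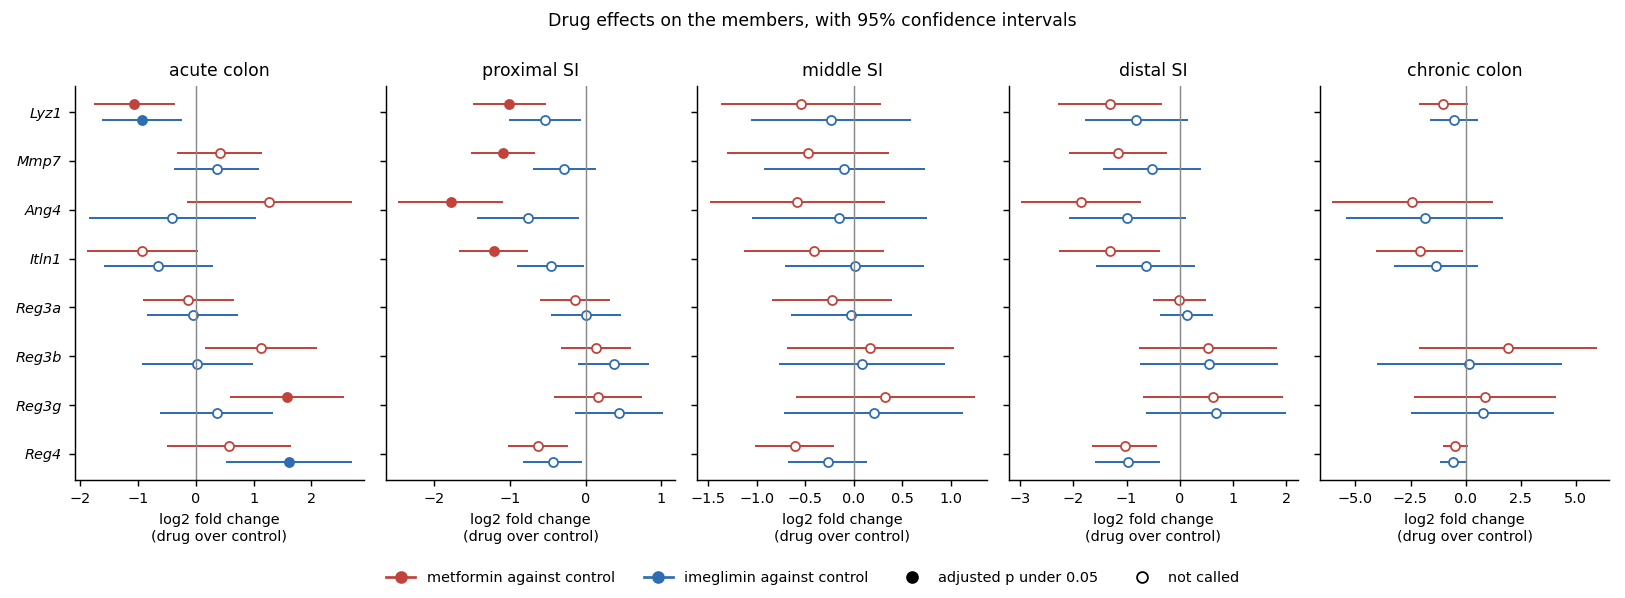
Log2 fold change of drug over control with its 95% interval for the 8 genes in 5 tissues; metformin is red, imeglimin is blue, and filled points have an adjusted p under 0.05. The filled points are Lyz1 with both drugs, Reg3g with metformin and Reg4 with imeglimin in acute colon, and Lyz1, Mmp7, Ang4 and Itln1 with metformin in proximal small intestine; each panel has its own horizontal scale.

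The Reg3 lectins did not move with the Paneth products in the small intestine. Reg3b and Reg3g, which bind bacterial cell walls and in the case of Reg3g kill Gram-positive bacteria, were not called in any segment with either drug. Reg3g had 2960, 3583 and 5559 CPM with metformin, 5909, 2007 and 4718 CPM with imeglimin and 3336, 3608 and 928 CPM in controls of distal small intestine, and the groups overlapped. Averaged over the 3 segments, Reg3g was at 0.38 (95% interval -0.19 to 0.95) with metformin and 0.45 (-0.12 to 1.02) with imeglimin, Reg3b at 0.29 (-0.22 to 0.80) and 0.34 (-0.17 to 0.86), and Reg3a at -0.11 (-0.43 to 0.20) and 0.05 (-0.27 to 0.37). Of their upstream cytokines and sensors, 1 of 17 tested genes was called in proximal small intestine with metformin, Il18 (0.53, adjusted p = 0.0164), and none with imeglimin or in middle or distal small intestine with either drug. Il22 itself stood at 0 to 0.645 CPM in all 27 libraries.

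From library to library 4 of the 8 genes moved together, as did 1 further pair, while Reg4 and Reg3a belonged to neither. Over the 27 small intestine libraries, as deviations from the mean of their segment, Pearson's r among Lyz1, Mmp7, Ang4 and Itln1 was 0.952 to 0.977 (Spearman's rho 0.921 to 0.959), and it was 0.973 between Reg3b and Reg3g (rho 0.946). Between a Paneth product and Reg3b or Reg3g, r was 0.0188 to 0.178. Reg4 went with the Paneth products at r = 0.601 to 0.693 and against Reg3b and Reg3g at r = -0.301 and -0.381, and Reg3a with none of them beyond r = 0.264. These are descriptions over libraries that share treatments and depth.

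**Figure D4:**
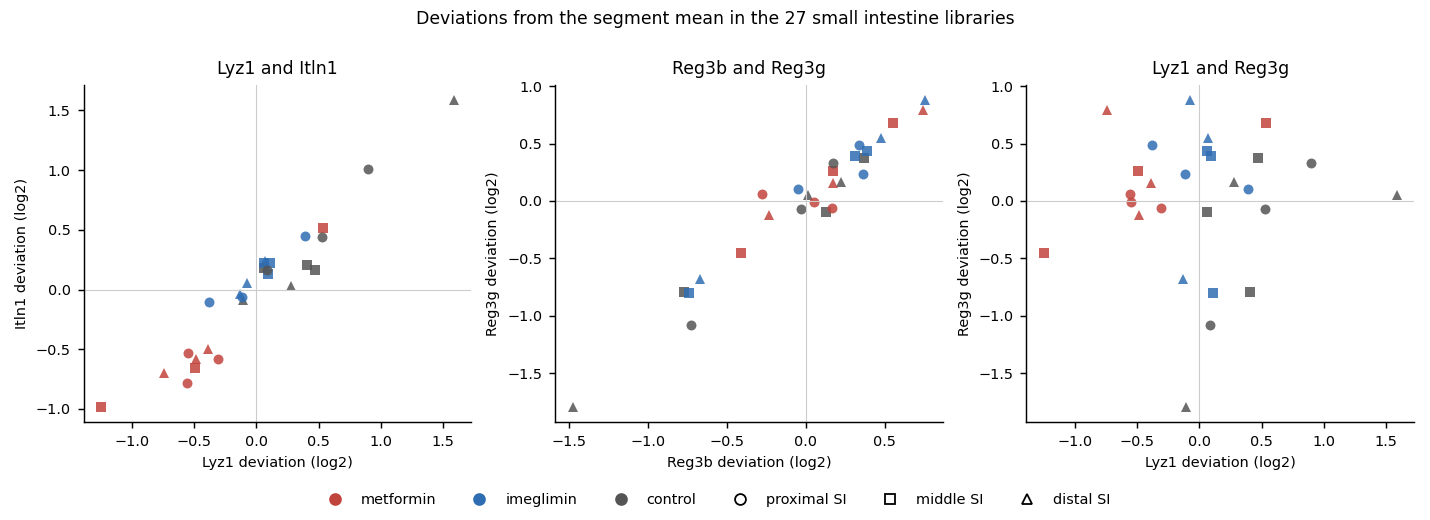
Deviation of each of 27 small intestine libraries from its segment mean on the log2 scale, for Lyz1 and Itln1, Reg3b and Reg3g, and Lyz1 and Reg3g; colours are metformin, imeglimin and control, and shapes are segments. The first 2 pairs lie along a line (r = 0.96 and 0.973), the last does not (r = 0.0461), and the metformin libraries, except middle metformin 2, lie at the low end of Lyz1 and Itln1.

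Among 12572 genes with at least 5 CPM in some group, the 5 genes most like each member over all 45 libraries were ranked, and the 2 closest of each are named here. For Mmp7 the closest were Defa5 (r = 0.894) and Defa35 (r = 0.892), both alpha-defensins. For Lyz1 they were Itln1 (r = 0.831) and Defa30 (r = 0.827), and for Itln1 they were Mptx2 (r = 0.832), a Paneth cell pentraxin, and Lyz1. For Reg3g they were Reg3b (r = 0.842) and Fut2 (r = 0.796), the fucosyltransferase of the gut surface. For Ang4 they were Itln1 (r = 0.764) and Retnlb (r = 0.734), a goblet cell antimicrobial protein. For Reg3b they were Reg3g and Cpn2 (r = 0.702), for Reg3a Pgrmc1 (r = 0.682) and Hsd17b11 (r = 0.678), and for Reg4 Pabpn1 (r = 0.702) and Mat2a (r = 0.683). No member and no alpha-defensin was among the 5 of Reg3a or of Reg4.

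At 6 h after the oral dose, colon gave calls for Lyz1 and 1 Reg gene with each drug, and each of them hung on single libraries. With metformin 2 of 8 members were called, beside 19.7% of all genes, and with imeglimin 2 of 8, beside 33.3%, so the share of members called was near that of all genes. Reg3g had 75, 223 and 340 CPM with metformin, 77.6, 85 and 112 CPM with imeglimin and 87.2, 85.8 and 40.9 CPM in controls. Metformin 1 lay within the controls and metformin 2 and 3 above them, and Reg3g was higher with metformin by 1.58 ± 0.44 on the log2 scale (edgeR adjusted p = 0.0294). Reg3b had 437, 631 and 1293 CPM with metformin, 368, 270 and 461 CPM with imeglimin and 508, 406 and 163 CPM in controls, in the same order of libraries within metformin (1.13 ± 0.43, adjusted p = 0.0872). Reg4 had 27.3, 48.3 and 27.7 CPM with metformin, 23.6, 54.1 and 133 CPM with imeglimin and 28.1, 22.9 and 18.1 CPM in controls, so that imeglimin overlapped controls but imeglimin 3 was far above them (1.61 ± 0.49, adjusted p = 0.0258). Mmp7, Itln1 and Reg3a, at 0.591 to 5.5 CPM in the 9 libraries, were called with neither drug (0.41, -0.93 and -0.13 with metformin, 0.36, -0.65 and -0.05 with imeglimin, adjusted p = 0.15 to 0.921).

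Each of these Reg calls changed when a library was left out. Reg3g with metformin was not called without metformin 3 (1.06, adjusted p = 0.107), nor without control 1, 2 or 3 (1.30 to 1.74, adjusted p = 0.0613, 0.0592 and 0.103). Reg3b was called without metformin 1 (1.42, adjusted p = 0.047). Reg4 with imeglimin was at 0.76 without imeglimin 3 (adjusted p = 0.143), and was not called without control 1, 2 or 3 (adjusted p = 0.0543, 0.0719 and 0.0892). With the replicate number as a block, which the labels give as a batch, Reg3g was at 1.41 (adjusted p = 0.0722) and Reg4 at 1.40 (adjusted p = 0.0679).

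Lyz1 was low in the colon, and its acute calls were lost without control 1. It had 3.17, 3.63 and 3.95 CPM with metformin, 3.39, 4.37 and 4.01 CPM with imeglimin and 12.2, 5.05 and 5.2 CPM in controls. Every drug library lay below every control, as in 18.8% of all genes with metformin and 25.6% with imeglimin, and control 1 was well above the others. The log2 fold change was -1.06 ± 0.31 with metformin (adjusted p = 0.0346) and -0.93 ± 0.31 with imeglimin (adjusted p = 0.0385). Without control 1 it was -0.52 (adjusted p = 0.0968) and -0.40 (adjusted p = 0.147), and leaving out any 1 metformin or imeglimin library also ended its call (adjusted p = 0.0608 to 0.108). With the batch block it was -0.99 (adjusted p = 0.0683) and -0.86 (adjusted p = 0.0753).

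Control 1 stood apart in Defa24 and Slc10a2. Defa24 had 0.283, 0.384 and 0 CPM with metformin, 0.0802, 0 and 0.0545 CPM with imeglimin and 6.59, 1.26 and 0.774 CPM in controls. Slc10a2, the ileal bile acid transporter, had 129, 274 and 133 CPM with metformin, 225, 206 and 273 CPM with imeglimin and 626, 355 and 302 CPM in controls. The listed small intestine markers, which include Slc10a2, summed to 872 to 1097 CPM in controls. They summed to 656 to 773 CPM with metformin and 743 to 899 CPM with imeglimin. The controls thus differed less in this sum than in Slc10a2 alone. Of 9 tested genes on the list of other Paneth genes, 6 were called lower with each drug, beside 8.37% of all genes with metformin and 15.1% with imeglimin. Without control 1, 0 of 9 were lower with metformin and 3 of 9 with imeglimin. The summed level of the whole list was 28.6 to 33.3 CPM with metformin, 27.2 to 30.1 CPM with imeglimin and 83.1, 30.9 and 37.7 CPM in controls. The part of this RNA in the Lyz1 calls was not tested.

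Ang4 was uneven among the acute colon libraries, and so were Aqp8 and Retnlb. It had 33.1, 3.19 and 26.4 CPM with metformin, 10.6, 5.75 and 3.24 CPM with imeglimin and 6.24, 7.97 and 11.7 CPM in controls. Metformin 1 and 3 lay above all other libraries and metformin 2 was the lowest of the 9. Aqp8, a water channel of colon surface cells, had 552, 63.7 and 370 CPM with metformin, 205, 90.6 and 125 CPM with imeglimin and 27.9, 28 and 99.1 CPM in controls. Retnlb had 56.2, 5.94 and 122 CPM with metformin, 53.7, 19.4 and 16.7 CPM with imeglimin and 13.1, 18 and 44.1 CPM in controls. Ang4 was not called with metformin (1.27, 95% interval -0.14 to 2.68, adjusted p = 0.186), but was without metformin 2 (1.78, adjusted p = 0.00774). That library also had the least smooth muscle RNA of the 9, with a summed 1894 CPM against 7331 and 4668 CPM in metformin 1 and 3. The part of these markers in the Ang4 values was not tested.

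**Figure D5:**
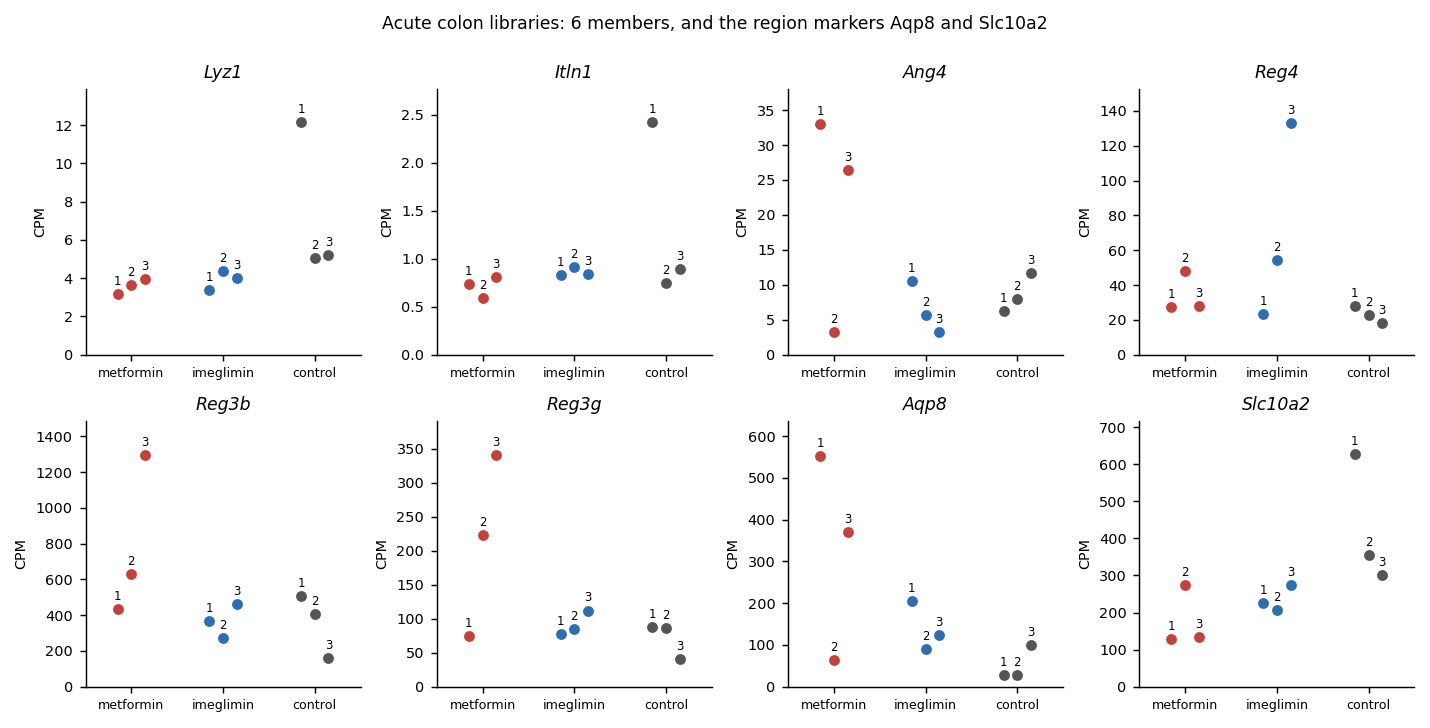
CPM by library in acute colon for Lyz1, Itln1, Ang4, Reg4, Reg3b and Reg3g and for the markers Aqp8 and Slc10a2; points are the 3 numbered libraries of metformin, imeglimin and control. Control 1 is highest in Lyz1, Itln1 and Slc10a2, metformin 1 and 3 are highest in Ang4 and Aqp8, metformin 3 is highest in Reg3b and Reg3g, and imeglimin 3 is highest in Reg4.

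The drugs did not differ past the threshold in acute colon, where imeglimin against metformin called 0 of 8 members, beside 0.645% of all genes. Reg3g was at -1.21 (95% interval -2.18 to -0.25, adjusted p = 0.218), Reg3b at -1.10 (-2.05 to -0.16, adjusted p = 0.242), Ang4 at -1.68 (-3.11 to -0.24, adjusted p = 0.241), Reg4 at 1.03 (-0.02 to 2.08, adjusted p = 0.311) and Lyz1 at 0.13 (-0.56 to 0.82, adjusted p = 0.862). Reg3g was called without metformin 1 (-1.62, adjusted p = 0.0443) and Ang4 without metformin 2 (-2.19, adjusted p = 0.0319).

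In acute colon 19.7% of all genes were called with metformin and 33.3% with imeglimin. Where counts are given below for genes around the Reg3 pathway, the shares called were not far from these. Of 18 upstream cytokines and sensors, 2 were higher and 3 lower with metformin, and 3 were higher and 4 lower with imeglimin, with median log2 fold changes of -0.35 and -0.31, against -0.04 and -0.03 over all genes. Tlr2, a receptor for bacterial lipoproteins, was at -1.35 with metformin (adjusted p = 0.000706) and -1.53 with imeglimin (adjusted p = 0.00019). Il22ra1, the receptor chain through which epithelium senses interleukin 22, was at -0.98 (adjusted p = 0.00121) and -0.70 (adjusted p = 0.00417). Of 23 other epithelial antimicrobial and interleukin 22 target genes, 4 were higher and 1 lower with metformin, among them Duox2, an epithelial oxidase (0.95, adjusted p = 0.00589). Of 13 secretory lineage factors, 4 were higher with metformin and 5 with imeglimin, and none lower. Klf4, a goblet cell factor, was at 0.71 (adjusted p = 0.00288) and 0.89 (adjusted p = 0.000474).

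In chronic colon none of the 8 genes was called with either drug, beside 19.7% of all genes with metformin and 13% with imeglimin. Reg4 had 254, 198 and 162 CPM with metformin, 202, 173 and 188 CPM with imeglimin and 252, 192 and 401 CPM in controls. The groups overlapped and control 3 was the highest (-0.46, adjusted p = 0.202 with metformin and -0.59, adjusted p = 0.143 with imeglimin). Lyz1 had 7.76, 2.63 and 1.65 CPM with metformin, 8.03, 4.75 and 3.91 CPM with imeglimin and 8.27, 7.94 and 7.84 CPM in controls. Metformin lay below controls in all 3 libraries, as in 20.6% of all genes, but metformin 1 only just (-1.0, edgeR adjusted p = 0.168). Lyz1 was called without metformin 1 (-1.90, adjusted p = 0.00532) and with the batch block (-1.27, adjusted p = 0.0367).

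Ang4 spanned a wide range within every group of chronic colon. It had 91.3, 3.07 and 2.55 CPM with metformin, 134, 7.07 and 1.51 CPM with imeglimin and 58.7, 80.2 and 374 CPM in controls. The groups overlapped, and the log2 fold change with metformin was -2.41 with a 95% interval of -6.01 to 1.19. Control 3, the library with pancreatic RNA, was highest in Ang4, Itln1 and Reg4. Without it, with metformin, Ang4 was at -1.11, Itln1 at -0.76 against -2.09 with all libraries, and Reg4 at -0.12, and none was called (adjusted p = 0.544 to 0.708). With imeglimin Ang4 was then at -0.55, Itln1 at -0.01 and Reg4 at -0.24 (adjusted p = 0.485 to 0.995).

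Mmp7 and the Reg3 genes were at the edge of detection in chronic colon. Mmp7 had counts of 8, 0 and 0 with metformin, 8, 12 and 13 with imeglimin and 0, 0 and 0 in controls, and was not tested there, nor was Reg3a. Reg3b had counts of 7, 3 and 157 with metformin, 0, 0 and 50 with imeglimin and 0, 0 and 45 in controls. Replicate 3 was the highest in each group, and with the batch block Reg3b was called higher with metformin (2.55, adjusted p = 0.0459). Reg3g had counts of 0, 0 and 41 with metformin, 9, 21 and 8 with imeglimin and 8, 13 and 0 in controls, which overlapped.

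Between the acute and the chronic colon, the effect of imeglimin differed in 2 of 8 genes, beside 16.3% of all genes (edgeR fit of 18 libraries). For Reg4 the acute effect exceeded the chronic one by 2.16 ± 0.60 on the log2 scale (adjusted p = 0.0217). For Mmp7 the adjusted p was 0.0192, and this rests on the counts of 0 in chronic controls. Without replicate 2 or 3 neither was called (2.5 and 0.85 with adjusted p = 0.112 and 0.364 for Reg4, adjusted p = 0.0787 and 0.131 for Mmp7). The effect of metformin differed in 0 of 8, beside 6.22% of all genes. The experiments differ in dose, route, time and region markers of the colon, which cannot be told apart.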

How the data were processed

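Per the labels' protocols, total RNA was prepared with RNeasy kits and bulk libraries with the TruSeq Stranded mRNA kit. The authors deposited raw counts per gene symbol, in 5 tables of 9 libraries. HISAT2, StringTie, Trimmomatic, FastQC and Cell Ranger and the builds mm10 and GRCm39 are named, per the submitters' processing notes; versions, annotation and strand setting are not given in the sources used here. In the table of chronic colon, 26 symbols had been turned into dates, none of them a member. Every library name was matched to its label.

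Counts were tested with edgeR 4.0.16 (R 4.3.3; TMM, filterByExpr, quasi-likelihood F test), with Benjamini-Hochberg adjustment over the 17295 to 18665 genes tested in a table and a threshold of 0.05. Segments were compared in joint fits. The SE is the absolute log2 fold change over the square root of F. CPM used TMM-scaled library sizes within a table. The labels do not say that the 3 libraries of a group are separate animals, so a p-value sets a difference against the spread of these libraries only, and that spread may be technical; replicates differed beyond sampling noise (chi-square per gene 12.4 to 177). Zero counts allow up to 3 counts. Totals were 31606797 to 47324301 counts per library, and intervals and floors cover counting error only where they come from counts.

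The members and gene lists were chosen with earlier results of these data known. All 8 members were to be named in every comparison, and where one is not, it was not called there; of each list at most the 2 called genes with the smallest p are named, with single markers of libraries that stand apart, and for likeness the 5 genes with the highest r of log2(CPM + 1) after centring each table. Alternatives were DESeq2 1.42.0, other normalization and filters, a robust fit, only the groups compared, a replicate block and each library left out. The mean over small intestine segments, its limma 3.58.1 check and list counts with libraries left out were added after seeing the data. The labels carry a batch tag equal to the replicate number; same-numbered libraries had a mean correlation of deviations of -0.177 to 0.0929. The fits of proximal metformin against control and of middle against proximal controls were tried on simulated counts. These held no outlying library, so they do not bear on calls that rest on a single library. Upstream sequences were searched with Python 3.11.15 and figures drawn with matplotlib 3.10.9. The single-cell UMI counts the authors deposited as 3 matrices of 1 sample entered no comparison, since the labels do not tie a matrix to a treatment.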

Additional observations from a re-analysis of the deposited data

Results flagged for a closer look

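The effect of imeglimin differed between acute and chronic colon for Mmp7 (edgeR adjusted p = 0.0192) and Reg4 (adjusted p = 0.0217). Mmp7 had no count in the 3 chronic controls, and both calls were lost without replicate 2 or 3.

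All 8 genes were detected in a single-cell sample from a 12 week experiment, which no comparison uses and which has no control for background. Over its 3 matrices Reg4 had 73363 UMIs, Ang4 47154, Lyz1 2199, Mmp7 1145, Itln1 708, Reg3g 141, Reg3b 72 and Reg3a 33. In the matrices named Met, Ime and CT, Reg4 stood at 202, 727 and 424 CPM and Ang4 at 81.4, 585 and 494 CPM. Cells with at least 3 UMIs of the goblet cell mucin Muc2 held 97.9% to 99.8% of the UMIs of Reg4 and Ang4, and were 91.1%, 26.4% and 45.1% of the cells of Met, Ime and CT. These cells were also deeper, so their share of all UMIs exceeds their share of cells. Reg4 stood at 204, 1343 and 522 CPM in them, against 35.3, 24.5 and 41.7 CPM in cells with no Muc2 UMI. Ang4 stood at 82, 1081 and 611 CPM against 7.85, 17.9 and 17.6 CPM. Lyz1 went the other way, at 5.47, 5.23 and 12.4 CPM against 39.3, 18.4 and 49.98 CPM. So did Mmp7 in Ime and CT, at 0.688 and 6 CPM against 6.05 and 98.9 CPM. In Met, Mmp7 stood at 2.05 CPM against 0 CPM. Itln1 lay with Reg4 and Ang4, with 100%, 95.6% and 97.3% of its UMIs in cells with at least 3 Muc2 UMIs. The Reg3 genes had few UMIs, and the direction of Reg3a and Reg3b differed between matrices. In Met, the cells with no Muc2 UMI held only 9 UMIs of Reg4, 2 of Ang4 and 10 of Lyz1. Among cells with no Muc2 UMI, 4.97%, 2.71% and 2.15% had a Reg4 UMI in Met, Ime and CT, at median depths of 1155, 911.5 and 994.5 UMIs, against 27%, 41.6% and 27% of cells with at least 3 Muc2 UMIs, at median depths of 6501, 2979 and 5677.5 UMIs. No doublet caller was run on these cells. No barcode was shared between matrices (0 shared). The link from matrix to treatment rests on names alone, so no difference between them is drawn.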

How the results depend on the processing

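Of 2078 alternatives for single genes, 1994 kept the direction and the call, 54 lost a call, 30 gained one and 0 turned a called direction round; in 106 the sign differed with no call in either. Of 270 alternatives for counts of members called, 227 stayed within 1.5 times. The cause of the others was not tested. In acute colon the count of 2 with metformin was 1 in the robust fit and 0 with only the groups compared, and the count of 2 with imeglimin was 1 in the robust fit. In proximal small intestine the 4 with metformin were 2 in the robust fit, and the 0 for imeglimin against metformin were 1 by DESeq2 and 2 with only the groups compared. In distal small intestine DESeq2 called 5 with metformin and 1 with imeglimin, against 0. For each drug, DESeq2 called 1 member, against 0, for an effect that differs between chronic segments. With 1 library or replicate left out, the counts ranged from 0 to 2 (acute metformin), 0 to 1 (acute imeglimin), 0 to 1 (acute imeglimin against metformin), 0 to 4 (proximal metformin), 0 to 3 (middle metformin), 0 to 1 (middle imeglimin against metformin), 0 to 1 (chronic colon metformin), 0 to 3 (middle against proximal controls), 0 to 1 (distal against middle controls), 0 to 1 (either drug by segment), 0 to 2 (imeglimin, acute against chronic colon), 2 to 5 (mean metformin over the small intestine), 0 to 1 (mean imeglimin) and 0 to 3 (mean imeglimin against metformin). In chronic colon Mmp7 and the Reg3 genes had few counts, which limits the precision of their values.

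With the replicate block the acute colon counts were 0 with metformin and 0 with imeglimin, and the chronic colon count with metformin was 2. It left the 4 proximal metformin calls (adjusted p = 0.0215 for Ang4, 0.0238 for Itln1, 0.0331 for Mmp7 and 0.0467 for Lyz1) and changed no other count by over 1.5 times. Of 9 same-numbered pairs in a table, 0 to 3 had a correlation of deviations over 0.1. In chronic colon, with 3 such pairs, the mean correlation was 0.0929 for the same number and -0.0467 for other numbers. In each of the other tables it was lower for the same number than for other numbers. With 3 libraries a group, these values cannot decide if a number pairs the samples.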
